A study of Homo sapiens with 6 samples.

Results

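The comparison described here set HepG2 cells after 1 h with a Scutellaria baicalensis extract against HepG2 cells of the control. HepG2 is a human hepatoma cell line that keeps many traits of hepatocytes. The extract was used at 100 µg/ml, and each condition was read on 1 one-colour Agilent expression array, so 2 of the 6 arrays of the series enter the comparison. Both arrays carried total RNA of the same cell line, and the labels give neither a vehicle nor a time for the control. The other 4 arrays held cells exposed for 3, 6, 12 or 24 h and appear below only where a level is given on every array. With 1 array a side there is no spread between replicates and no test, so every value below describes these 2 arrays. A gene counted as measured when its brightest probe was well above background and unsaturated on both arrays, which held for 13129 of the 17487 genes with a usable probe.

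Scutellaria baicalensis is a plant of the mint family whose root is rich in flavones such as baicalin, baicalein and wogonin. Several flavones are known as ligands of the aryl hydrocarbon receptor (AhR), a transcription factor that induces CYP1A1, and as inhibitors of several protein kinases. A short exposure catches the first layer of transcription. Immediate early genes such as FOS, JUN and EGR1 are switched on by kinase signalling without new protein synthesis, their messengers decay fast, and dual specificity phosphatases and Sprouty proteins then damp the MAP kinase pathway. Genes bound by FOXO factors, among them CCNG2, are known to be active when growth signalling is low.

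Levels are given in scaled units, in which the 75th percentile of each array equals 1000, and differences are log2 of 1 h over control. Few genes differed much between the arrays. At 1 h 294 genes were at least 2-fold higher, 2.24% of those measured, and 87 were at least 2-fold lower, 0.663%, or 2.9% in either direction. Another background correction, normexp, gave 117 higher and 37 lower. At a limit of 1.5-fold the counts were 1048 genes higher, 7.98%, and 881 lower, 6.71%. The median difference of all measured genes was -0.06 and 85.3% of them lay within 1.5-fold. A further 206 genes were saturated on at least 1 of these arrays, 306 were above background at 1 h alone, 253 in the control alone, and 3593 on neither.

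Before scaling, the 75th percentile of spot signals was 1090 units for the 1 h array and 768 units for the control. All 15 hepatocyte markers were above background on both arrays, and 8 of them were saturated. The summed level of all 15 was 699100 units at 1 h and 847900 units in the control, saturated members included. Of 12 fibroblast and stellate cell markers, 8 were above background on neither array. Of 12 haematopoietic markers 10 were above background on both. The summed level of all 12 was 10750 units at 1 h and 8056 units in the control. Of 10 endothelial markers 6 were above background on both. The summed level of all 10 was 755 units at 1 h and 929 units in the control. The part of these markers in the results below was not tested. Both arrays carried RNA of the HepG2 line, and what the signal of markers of other cell types reflects was not tested.

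The array reads each gene through 60-base probes, and the composition of the probe turned out to move with the difference, so the probes of 6 genes that carry the results below are shown. The first 30 bases are printed as the scanner files list them, from the 5′ end, with G and C in capitals. EIF5A and SRSF6 were higher at 1 h in both of their probes, CCNG2 was lower in both, DUSP1 and DDIT4 were lower in their only measured probe, and the probes of STAT5A disagreed.
EIF5A brighter probe: atGGCtttGtGGtGCtCaaaGGCCGGCCat
EIF5A second probe: GaCGGGGtCGaGtCaGtGCCGtttGCGCCa
SRSF6 brighter probe: GCttatttttaaattaaCtGttttGaGCtt
SRSF6 second probe: CtCCaCCaaaaaGaGCtaCttCaaGatCCC
CCNG2 brighter probe: aGGCaGaaataattaGGCtaGGGCtCttaG
CCNG2 second probe: aaCCatCtGtattaGCCttGtGCCttCtCa
DUSP1 probe: tGtCtaCtCCtaGaaGaaCCaaataCCtCa
DDIT4 probe: tCGtGGaGGtGGtttGtGtatCttaCtGGt
STAT5A brighter probe: tCtCtGtttGtaaCCttGtCGaCaaaGaGG
STAT5A second probe: aaGGatGaGGtCttCtCCaaGtaCtaCaCt
Over all 60 bases the G and C content was 50% and 55% for EIF5A, 35% and 43.3% for SRSF6, 38.3% for both probes of CCNG2, 35% for DUSP1, 45% for DDIT4, and 43.3% and 45% for STAT5A. The higher genes thus include a pair of G and C rich probes as well as an AT rich one.

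How far a single probe can be trusted was read from 3613 genes with exactly 2 measured probes. The gap between the probes of a gene gave an SD of 0.36 (log2) for 1 probe, which serves as the error of each difference below. It holds no spread between cultures, labellings or arrays, since a gene's probes share the array. Of 57 genes whose brighter probe was at least 2-fold higher at 1 h, the second probe was at least 1.5-fold higher in 24 and below 0 in 14. Of 19 genes whose brighter probe was at least 2-fold lower, the second was at least 1.5-fold lower in 4 and above 0 in 3. In 0 pairs was 1 probe 2-fold higher and the other 2-fold lower. A 2-fold difference in 1 probe was therefore often not matched by the other.

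**Figure D1:**
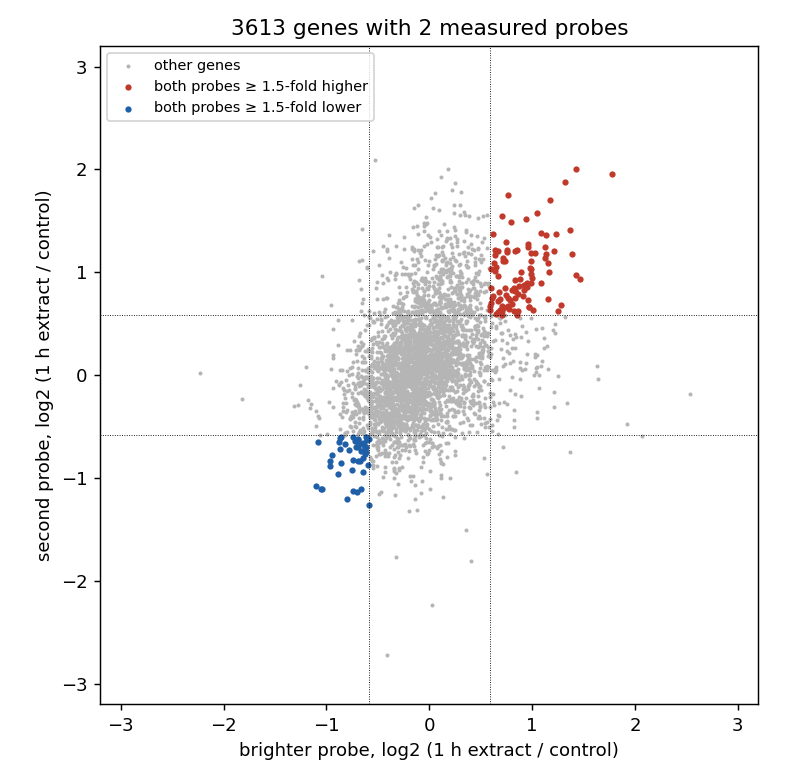
The log2 difference of the second probe (vertical axis) is plotted against that of the brighter probe (horizontal axis), both as 1 h extract over control, for the 3613 genes with 2 measured probes. Dotted lines mark 1.5-fold. Most genes lie near 0, the red genes are at least 1.5-fold higher in both probes and the blue genes at least 1.5-fold lower in both.

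Genes whose probes agreed were therefore given the most weight. Of 4736 genes with 2 or more measured probes, 103 were at least 1.5-fold higher at 1 h in every probe, 2.17%, and 49 were at least 1.5-fold lower in every probe, 1.03%. At 2-fold in every probe 17 genes were higher, 0.359%, and 3 were lower, 0.0633%. The 3 lower genes were ZC3H6, IFI27 and CCNG2. After the fit on probe composition described below, 10 were higher and 0 lower at this limit. Scaling to the median of measured probes instead gave 123 agreeing genes higher and 34 lower at 1.5-fold, and normexp background correction gave 55 and 24.

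The 14 genes most firmly higher, ranked by the smaller of their probe differences, are described first. EIF5A, a translation factor that carries the amino acid hypusine and helps ribosomes through stretches that are hard to translate, had 5835 units at 1 h and 1706 units in the control by its brighter probe. Its second probe read 2633 units at 1 h and 680 units in the control, and the mean of the probes was 3.64-fold higher at 1 h. SRSF6, a splicing factor of the SR family, had 2083 units at 1 h against 777 units in the control, and 1624 units against 404 units by its second probe, a mean of 3.28-fold. HNRNPA0, an RNA-binding protein of the hnRNP family, had 5303 units at 1 h and 2122 units in the control, and its second probe 1083 units at 1 h and 294 units in the control, a mean of 3.03-fold. Both probes of these genes were higher at 1 h by more than 3 times the single-probe error. The genes were picked by the size of these differences, so this margin is no support of its own.

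SNRNP40, a component of the U5 spliceosomal particle, had 1037 units at 1 h and 487 units in the control by its brighter probe, and differences of 1.09 and 1.38 by its probes. CD2BP2, which associates with the same particle, had 413 units at 1 h and 194 units in the control by its second probe, with differences of 1.15 and 1.09. INTS11, the nuclease of the Integrator complex that cleaves nascent transcripts, had 945 units at 1 h and 430 units in the control, with differences of 1.14 and 1.18. The genes are set side by side here by what they encode, and no enrichment was tested.

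TMED2, a receptor for cargo moving between the endoplasmic reticulum and the Golgi, had 2679 units at 1 h and 1036 units in the control, and 1376 units against 518 units by its second probe. AP1S1, a subunit of the clathrin adaptor of the Golgi, had 885 units at 1 h and 393 units in the control, and its probes differed by 1.17 and 1.70. STXBP2, which binds syntaxins in exocytosis, had 295 units at 1 h and 135 units in the control, with differences of 1.13 and 1.14. All 3 were more than 2-fold higher at 1 h in both probes as measured, and STXBP2 differed by 1.15 and 0.94 after the fit on probe composition.

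PFKL, the liver form of phosphofructokinase in glycolysis, had 2284 units at 1 h and 974 units in the control, with differences of 1.23 and 1.37. ETV4, an ETS transcription factor, had 5202 units at 1 h and 2240 units in the control, and its probes gave nearly equal differences of 1.22 and 1.21. SOX12, a transcription factor of the SOX family, had 2486 units at 1 h and 1141 units in the control by its brighter probe, and 162 units against 68.5 units by its second. FSCN1, which bundles actin, differed by 1.14 and 1.36, and SLC35H1, a solute carrier, by 1.39 and 1.17. HSPA1A, the inducible HSP70 chaperone, came next in rank with 617 units at 1 h and 298 units in the control, and its probes differed by 1.05 and 1.57. HSPA1A has a near-identical neighbouring copy, so its reading is uncertain.

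The lower genes were fewer and their differences smaller. CCNG2, an unusual cyclin tied to arrest of the cell cycle, had 466 units at 1 h and 964 units in the control, and 25.8 units against 55.7 units by its second probe, differences of -1.05 and -1.11. ZC3H6, a zinc finger protein, had 296 units at 1 h and 635 units in the control, with differences of -1.10 and -1.08. IFI27, an interferon-induced gene, had 244 units at 1 h and 505 units in the control, with differences of -1.05 and -1.10. The probes of IFI27 share 22 bases, so they are not independent readings.

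The other lower genes included regulators of growth and transcription. MXD1, a MAX partner that opposes MYC, had 1037 units at 1 h and 1810 units in the control, with differences of -0.80 and -1.21. TAF15, an RNA-binding protein of the FET family, had 3147 units at 1 h and 5703 units in the control, and its probes differed by -0.86 and -0.85. Its second probe was dim, at 35.9 units at 1 h and 64.8 units in the control. PER3, a period gene of the circadian clock, was dim at 27.1 units at 1 h and 52.2 units in the control, with differences of -0.95 and -0.78. SLC38A2, an amino acid transporter, was the brightest of the 14, at 26610 units at 1 h and 48570 units in the control, and its probes differed by -0.87 and -0.72.

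POLK, a DNA polymerase of translesion synthesis, had 276 units at 1 h and 538 units in the control, and USP37, a deubiquitinase, had 434 units at 1 h and 849 units in the control. Their probes differed by -0.96 and -0.89 for POLK and by -0.97 and -0.84 for USP37. The other 5 of the 14 were CCDC191, KIAA1586, LYSMD3, and the zinc finger genes ZNF177 and ZBTB10, with differences between -1.13 and -0.73 in their probes. At 1 h the second probes of CCDC191, KIAA1586, LYSMD3 and ZNF177 were dim, at 24.5, 15.4, 18.0 and 26.15 units, so their agreement is less certain. IER2, an immediate early gene, was further down among the 49, at 17430 units at 1 h and 28260 units in the control, with differences of -0.70 and -0.62.

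**Figure D2:**
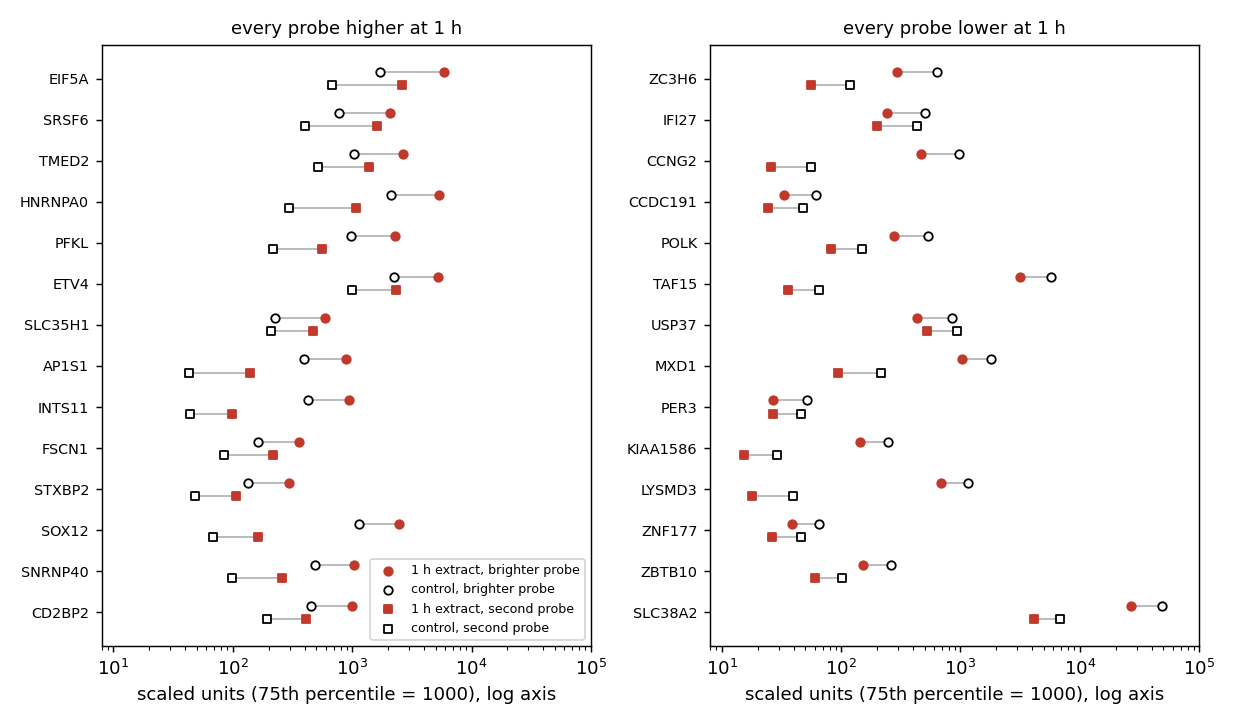
Levels in scaled units (log axis) are shown for the 14 genes most firmly higher (left) and the 14 most firmly lower (right) at 1 h. Filled red symbols are the 1 h extract array and open symbols the control array, circles the brighter probe and squares the second probe. Each pair of symbols moves the same way for both probes of a gene.

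The difference moved with the base composition of the probe. Over 27391 measured probes the correlation of the difference with G and C content was 0.32 (Pearson) and 0.34 (Spearman), a description across probes that share both arrays. Genes whose representative probe held at most 35% G and C had a median difference of -0.24, and those above 55% a median of 0.21. The share of genes at least 2-fold higher at 1 h was 0.533% in the first of these classes and 5.07% in the second. Shares of genes at least 2-fold lower were 0.97% in the first class, 0.179% between 45% and 50% G and C, and 0.882% in the last. The other extract arrays, set against the same control, gave smaller correlations, 0.08 for the 3 h array, 0.16 for 6 h, 0.10 for 12 h and 0.07 for 24 h.

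The same trend was present between probes of 1 gene. In 1141 genes with a pair of probes at least 10 percentage points apart in G and C content, the G and C rich probe gave the higher difference in 706, 61.9%. Over all 1141 the median gap, G and C rich minus poor, was 0.16. The agreeing higher genes had a median G and C content of 50%, and the agreeing lower genes one of 37.5%, against 41.7% for all genes with several probes. A loess fit of the difference on G and C content was therefore subtracted, a choice made after the trend was seen. It left 215 genes at least 2-fold higher, 1.64%, of which 186 were among the 294, and 83 lower, 0.632%, of which 65 were among the 87. At 1.5-fold it left 6.86% of genes higher and 4.86% lower. In genes with several probes it left 87 higher, 1.84%, of which 66 were among the 103, and 13 lower, 0.274%, of which 12 were among the 49. All 14 higher genes named above kept 1.5-fold in both probes, and after the fit SRSF6 differed by 1.62 and 2.07 and EIF5A by 1.61 and 1.75. Of the 14 lower genes, PER3, KIAA1586, LYSMD3 and ZBTB10 no longer did, and neither did IER2, whose brighter probe stood at -0.88 and second at -0.42. What caused the gradient was not tested.

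**Figure D3:**
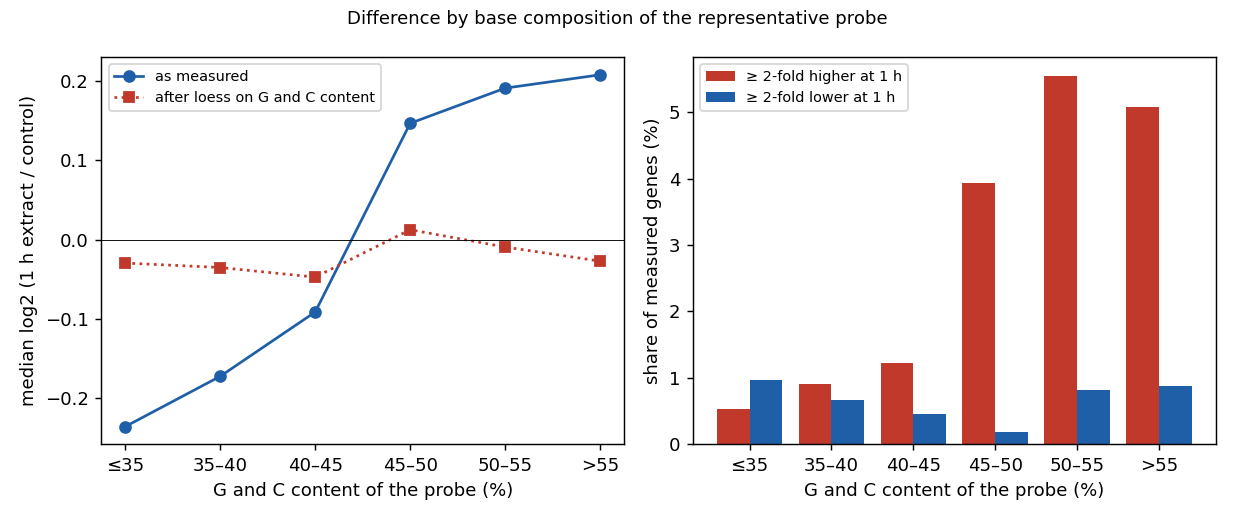
The left panel plots the median log2 difference of 1 h extract over control by the G and C content of the representative probe (in %), as measured and after the loess fit. The right panel plots the share of measured genes in each class (in %) at least 2-fold higher and at least 2-fold lower at 1 h. The median runs between -0.24 and 0.21 as measured and is close to 0 in every class after the fit.

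The list of immediate early transcription factors, which also holds other early genes such as ZFP36L1, was lower at 1 h by the brightest probes of its members. This list and those below were chosen with earlier results of these data known, so their counts are descriptions and no test. Of 31 listed, 29 were measured, with a median difference of -0.42 against -0.06 for all measured genes. Below 0 were 23 of the 29, where 55.7% of all genes were, and 10 were at least 1.5-fold lower, where 6.71% of all genes were, while 1 was at least 1.5-fold higher, where 7.98% were. BHLHE40, a repressor of the clock and of transcription, had 820 units at 1 h and 2435 units in the control, a difference of -1.57. JUN, a subunit of AP-1, had 4955 units at 1 h and 10350 units in the control, a difference of -1.06 with an SE of 0.05 over its 10 repeated spots on each array. This SE covers spots alone.

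EGR2, an early growth response factor, was dim at 19.7 units at 1 h and 48.3 units in the control, a difference of -1.29. EGR1 had 4193 units at 1 h and 7708 units in the control, a difference of -0.88. ZFP36L1, which promotes decay of AU-rich messengers, had 6761 units at 1 h and 16150 units in the control by its brighter probe, -1.26, but -0.10 by its second. JUNB, another AP-1 subunit, gave -0.94 by its brighter probe, at 1936 units at 1 h and 3711 units in the control, but 0.45 by its second. FOS itself had 917 units at 1 h and 1302 units in the control, -0.51, and MYC 14010 units at 1 h and 16600 units in the control, -0.24. Of the AP-1 members measured, FOSL1 was higher at 806 units at 1 h and 518 units in the control, with differences of 0.64 and 1.16 by its probes, and FOSB had 526 units at 1 h and 371 units in the control, a difference of 0.50.

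KLF6 and KLF10, zinc finger factors of the Krüppel-like family, differed by -0.75 and -0.73 by their brightest probes, and the 2 other probes of KLF6 gave -0.42 and -0.22. ATF3, a stress-induced factor, differed by -0.38 in its brighter probe and by 1.00 in the other, and IER5 by -0.59 and 0.62. Such splits were common. Of the 14 immediate early genes with several measured probes, 4 had every probe below 0, 3 every probe above 0 and 7 were mixed, and 30.9% of all genes with several probes had every probe below 0. Taking the mean of a gene's probes moved the median of the list to -0.19. The median was -0.34 after the fit on G and C content, when 10 genes, not all of them those before the fit, were at least 1.5-fold lower, against 4.86% of all genes.

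Among genes that damp MAP kinase signalling, 13 of 14 listed were measured. They had a median of -0.37 (-0.35 after the fit on G and C content), and 11 of 13 were below 0, against 55.7% of all genes, and 3 at least 1.5-fold lower, against 6.71%. DUSP1, a phosphatase that inactivates MAP kinases, had 1862 units at 1 h and 4271 units in the control, 2.29-fold lower. DUSP6, which acts on ERK, had 11830 units at 1 h and 21870 units in the control, a difference of -0.89. The Sprouty genes SPRY1 and SPRY4, inhibitors of receptor signalling to ERK, differed by -0.61 and -0.54. Of the 6 genes with several probes, 4 had every probe below 0, against 30.9% of all such genes. DUSP9, another ERK phosphatase that was not listed here, was higher, at 4156 units at 1 h and 1680 units in the control, a difference of 1.31.

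The promoters of EGR1 and DUSP1 are shown since both genes were lower and carry known elements of signal-driven transcription. RefSeq sequence of build GRCh38.p14 is given for the 250 bases before the gene start, 5′ to 3′ on the gene's strand, at chr5:138465229-138465478 (+) for EGR1 and chr5:172771196-172771445 (-) for DUSP1. Capitals mark CArG boxes, the element bound by serum response factor, in EGR1, and the cyclic AMP response element TGACGTCA in DUSP1.
EGR1: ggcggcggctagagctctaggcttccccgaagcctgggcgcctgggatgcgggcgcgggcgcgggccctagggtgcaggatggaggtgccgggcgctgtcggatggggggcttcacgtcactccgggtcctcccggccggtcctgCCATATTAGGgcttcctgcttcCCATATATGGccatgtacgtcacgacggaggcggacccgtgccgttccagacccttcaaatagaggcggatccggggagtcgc
DUSP1: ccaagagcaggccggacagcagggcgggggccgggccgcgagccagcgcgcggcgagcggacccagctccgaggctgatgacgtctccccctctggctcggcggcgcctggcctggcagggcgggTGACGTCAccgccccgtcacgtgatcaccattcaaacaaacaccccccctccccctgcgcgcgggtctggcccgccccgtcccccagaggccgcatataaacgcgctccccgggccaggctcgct
Both strands were searched from 250 bases before to 50 after the start. TGACGTCA was present in 1.85% of 35116 promoters, in 2 of 23 immediate early genes found in the table (JUND and MAFF) and in 2 of 12 feedback genes (DUSP1 and DUSP8). A CArG box was present in 1.29% of all promoters, in 2 of the 23 (EGR1 and SRF) and in 0 of the 12. By its brightest probe SRF had 7578 units at 1 h and 6602 units in the control, and JUND 65050 units at 1 h and 71610 units in the control, both within the single-probe error, although another probe of SRF differed by 1.94. A match is a description of letters and not a site.

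Growth arrest and FOXO-linked genes had the lowest median among the 3 signalling lists. It was -0.55 over 22 measured members, and 18 of 22 were below 0, against 55.7% of all genes. At least 1.5-fold lower were 11, against 6.71% of all genes, and 0 were at least 1.5-fold higher, against 7.98%. The list was chosen with earlier results of these data known, so these counts are no independent support. DDIT4, an inhibitor of mTOR complex 1, had 4798 units at 1 h and 13150 units in the control, 2.74-fold lower. PIM1, a kinase induced by cytokine signalling, had 4578 units at 1 h and 12240 units in the control, 2.67-fold lower. DEPP1, a FOXO target, had 2550 units at 1 h and 6172 units in the control, -1.28 in its brighter probe and -0.29 in the other. CCNG2, already described, was the 1 member of the list that was 1.5-fold lower in every one of several probes.

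CDKN1B, the cell cycle inhibitor p27, had 1776 units at 1 h and 2997 units in the control, a difference of -0.75 over its 10-spot probe, against 0.08 in another probe. BCL6, BTG1 and TXNIP differed by -0.61, -0.64 and -0.59. FOXO1 had 5440 units at 1 h and 6849 units in the control, with differences of -0.33 and -0.38, while FOXO3 was slightly higher in both probes, 0.18 and 0.29. Probes of these genes were AT rich, with a median G and C content of 38.3% against 45% for all genes, and the fit on G and C content moved the median to -0.45 and left 7 at least 1.5-fold lower, against 4.86% of all genes. With the mean of a gene's probes the median was -0.35. Of 11 members with several probes, 5 had every probe below 0, against 30.9% of all such genes, 2 had every probe above 0 and 4 were mixed. CDKN1B, BCL6, BTG1, FOXO1 and FOXO3 were picked after their values were seen.

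**Figure D4:**
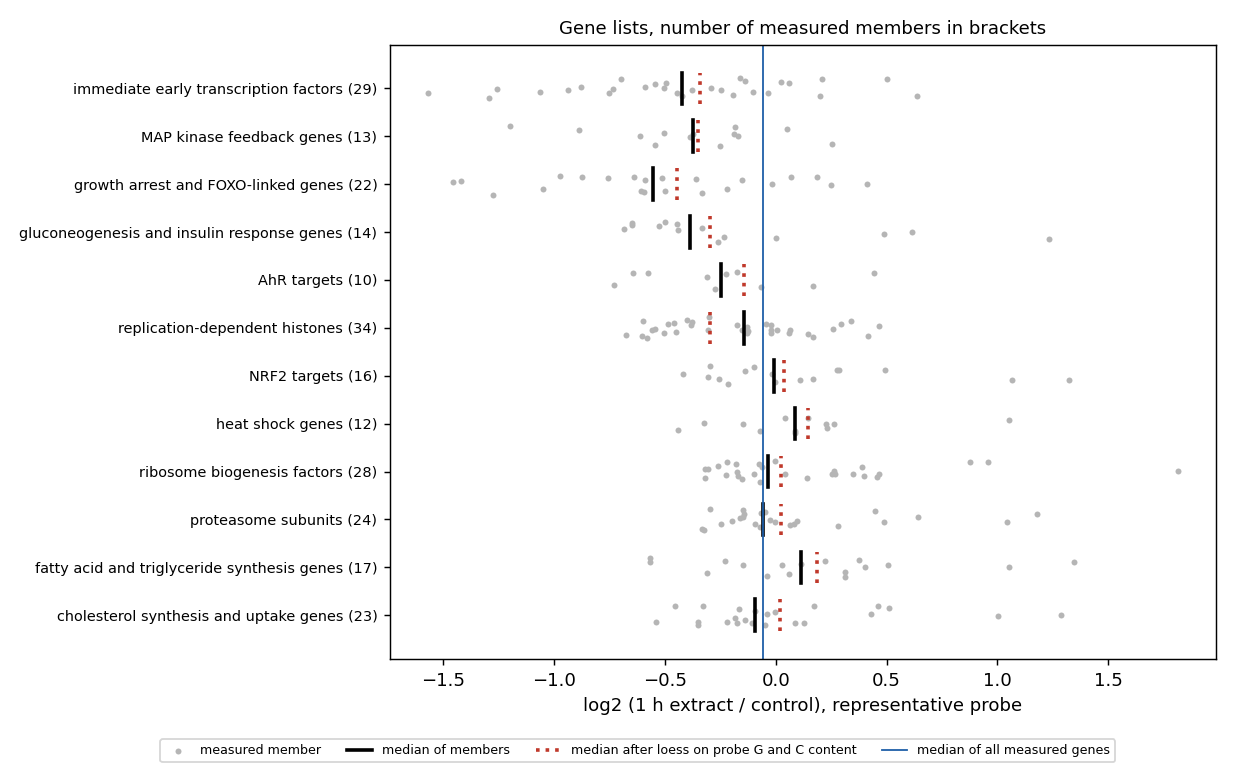
Each grey point is the log2 difference of 1 h extract over control of a measured gene, arranged by list, with black bars for the median as measured and dotted red bars for the median after the fit on G and C content. The blue line is the median of all measured genes, -0.06. The medians of the 3 upper lists lie between -0.55 and -0.37, left of the blue line with either bar.

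Of the 10 AhR targets measured, 0 were 2-fold apart from the control at 1 h, where 2.9% of all genes were. With so few members this count says little about the list. CYP1A1 had 2550 units at 1 h and 1875 units in the control, a difference of 0.44 that is near the single-probe error and was 0.25 after the fit on G and C content. The same probe read 12580 units on the 3 h array, 21830 on the 6 h array, 27380 on the 12 h array and 16520 on the 24 h array. AHRR, the AhR repressor, had 20.9 units at 1 h and 25.9 units in the control, and TIPARP, another target, 718 units at 1 h and 1191 units in the control, a difference of -0.73. The receptor AHR itself had 2147 units at 1 h and 3203 units in the control, a difference of -0.58, and NFE2L2, which encodes NRF2, differed by -0.65 and 0.30 in its probes. The 10 measured members had a median of -0.25, and 8 of them were below 0, against 55.7% of all genes. The median was -0.14 after the fit on G and C content and -0.12 among 6 bright genes.

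Stress pathways were mostly near the median of all genes. NRF2 targets had a median of -0.01 over 16 members, with HMOX1, the inducible heme oxygenase, at 5164 units at 1 h and 5680 units in the control, and NQO1, a quinone reductase, at 2312 units at 1 h and 2057 units in the control. Of the 16, 2 were at least 2-fold higher, where 2.24% of all genes were. OSGIN1, a regulator of growth under oxidative stress, was at 870 units at 1 h and 348 units in the control. Heat shock genes had a median of 0.09 over 12 members. HSPA1A was the 1 that was at least 2-fold higher, where 2.24% of all genes were. After the fit on G and C content its brighter probe differed by 0.83. None of the 12 was then 2-fold higher, against 1.64% of all genes. Metallothioneins, the zinc and copper binding proteins, lay between -0.06 and 0.23. MT2A was saturated on at least 1 of these arrays, so no difference is read.

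Of 17 genes for folding in the endoplasmic reticulum, 1 was at least 2-fold higher, against 2.24% of all genes, and the median was -0.06. This gene was HYOU1, a chaperone, at 650 units at 1 h and 254 units in the control. ATF4 response genes had a median of -0.17 over 20 members, with CEBPB, a transcription factor of the liver, at 26210 units at 1 h and 40800 units in the control, but another of its probes differed by -0.07. Hypoxia genes had a median of -0.01 over 23, and 2 were 2-fold lower, against 0.663% of all genes. ANKRD37 had 927 units at 1 h and 2188 units in the control, and ADM, the hormone adrenomedullin, 2154 units at 1 h and 4652 units in the control, a difference of -1.11 with an SE of 0.04 over spots. NF-κB targets had a median of -0.13 over 19, NFKBIA, the inhibitor induced by NF-κB, differed by -0.13, and p53 targets had a median of -0.09 over 21.

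JAK-STAT and SOCS genes had a median of -0.15 over 21, and STAT5A, a cytokine-activated factor, showed why a single probe needs care. Its brighter probe read 68.4 units at 1 h and 320 units in the control, a difference of -2.23, while its second probe read 38.3 units at 1 h and 37.8 units in the control. IFI6 and IFI27, both interferon-induced, differed in opposite directions. IFI6 had 1752 units at 1 h and 574 units in the control, whereas IFI27 was lower at 1 h. The 14 interferon response genes had a median of -0.09, the 9 acute phase genes one of 0.04, and TGF-β and BMP genes one of -0.19 over 16. PMEPA1, an inhibitor of TGF-β signalling, was 2-fold lower, at 46.2 units at 1 h and 132 units in the control. NOTUM, which inactivates WNT ligands, had 4000.0 units at 1 h and 1758 units in the control. The 15 WNT targets had a median of 0.08. Of them 1 was at least 2-fold higher as measured, against 2.24% of all genes. After the fit on G and C content 0 were, against 1.64%.

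Genes of apoptosis and the cell cycle split by member. BCL2L1, which encodes the survival protein BCL-XL, had 2860 units at 1 h and 1200 units in the control, with differences of 1.25 and 0.62 in its probes. MCL1, another survival protein with a short-lived messenger, had 13760 units at 1 h and 24740 units in the control, -0.85 in its brighter probe and 0.05 in the other. The 16 BCL2 family genes had a median of 0.18, which was 0.05 after the fit on G and C content, -0.0027 with the mean of a gene's probes and 0.33 among 13 bright genes. CDK2 was 2-fold higher, at 128 units at 1 h and 53.6 units in the control, and AURKB, a mitotic kinase, at 945 units at 1 h and 388 units in the control. Medians were -0.16 for 18 genes of G1 and 0.08 for 20 genes of mitosis. Replication-dependent histones had a median of -0.14 over 34, with 3 at least 1.5-fold lower as measured, against 6.71% of all genes, and 9 after the fit on G and C content, against 4.86%. The fit moved their median to -0.30. Histone genes are near-identical copies, so probes may not separate them.

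Genes of liver metabolism were counted list by list. At least 2-fold higher were 2 of 17 lipid synthesis genes and 2 of 23 cholesterol genes, against 2.24% of all genes. So were 1 of 14 gluconeogenesis and insulin response genes and 1 of 13 hydroxysteroid dehydrogenases. At least 2-fold lower was 1 of the 13 dehydrogenases, against 0.663% of all genes. Fatty acid oxidation genes and PXR and CAR targets had 0 in either direction, against 2.9%. These lists are small. Gluconeogenesis and insulin response genes had a median of -0.39 over 14, and 10 were below 0, against 55.7% of all genes. The median was -0.30 after the fit on G and C content and -0.04 with the mean of a gene's probes. In this list PCK1, the control point of gluconeogenesis, stood at -0.65 in its brighter probe and 0.74 in its second. INSR, the insulin receptor, was 2-fold higher, at 484 units at 1 h and 206 units in the control. FASN, fatty acid synthase, had 813 units at 1 h and 320 units in the control, a difference of 1.34, and MVD, of cholesterol synthesis, 1028 units at 1 h and 421 units in the control, 1.29. Medians were 0.11 for 17 lipid synthesis genes, -0.09 for 23 cholesterol genes, 0.07 for 16 fatty acid oxidation genes and -0.06 for 12 PXR and CAR targets. HSD17B6, a hydroxysteroid dehydrogenase, had the most negative difference of all measured genes, -2.73 by its only measured probe, at 71.7 units at 1 h and 475 units in the control. HSD3B7, an enzyme of bile acid synthesis, went the other way, at 161 units at 1 h and 51.2 units in the control, and the 13 dehydrogenases had a median of -0.03.

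Large housekeeping groups stayed near the median of all genes. Medians were -0.03 for 28 ribosome biogenesis factors, -0.13 for 33 genes of RNA polymerase II, P-TEFb and Mediator, -0.06 for 24 proteasome subunits and -0.06 for 29 respiratory chain genes. Single members stood out, among them WDR46, a nucleolar factor, with 577 units at 1 h and 164 units in the control, and PES1, another, whose probes differed by 0.96 and 1.25. PSMC5 and PSMD2, both of the 19S proteasome particle, were 2-fold higher, by 1.18 and 1.04. KRAB zinc finger genes had a median of -0.14 over 39. The 7 measured hepatocyte markers had a median of -0.08. The medians of the few measured markers of other cell types were 0.23 for haematopoietic, -0.13 for endothelial and 0.02 for fibroblast and stellate genes. After the fit on G and C content these 3 medians were 0.04, -0.33 and 0.11, and that of the hepatocyte markers 0.12. With normexp the haematopoietic median was 0.05.

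Clock genes had a median of -0.14 over 17, and 5 of the 17 were at least 1.5-fold lower, against 6.71% of all genes. The median moved with the processing, to -0.24 after the fit on G and C content, -0.28 with normexp or with the authors' values, -0.38 without the filter on dim probes and -0.62 among 6 bright genes. NFIL3, a repressor that binds clock-controlled genes, had 9358 units at 1 h and 18620 units in the control, a difference of -0.99. BHLHE40 and PER3, described above, belong to the same list.

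Among 3430 bright genes with a single measured probe, above the median level on both arrays, 18 were 2-fold higher, 0.525%, and 10 were 2-fold lower, 0.292%. The higher ones were led by ZSCAN10, a zinc finger transcription factor, at 5018 units at 1 h and 1732 units in the control, NUTF2, which imports Ran into the nucleus, at 5862 units at 1 h and 2370 units in the control, and SLC39A7, a zinc transporter, at 5817 units at 1 h and 2461 units in the control. HLA-H, a class I pseudogene, was 2.63-fold higher but resembles its expressed relatives, so its signal is uncertain. PSMD13, a proteasome subunit, was 2.35-fold higher. The lower ones were led by BHLHE40, DDIT4, PIM1, ANKRD37, DUSP1 and HOXD1, a homeobox factor at 6982 units at 1 h and 15360 units in the control. After the fit on G and C content the 6 higher genes, which include DUSP9, lay between 1.06 and 1.26, and the 6 lower ones between -1.43 and -0.97.

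Probes printed on about 10 spots give the tightest readings of these 2 arrays. Of 202 measured, 5 were 2-fold higher, 2.48%, and 3 were 2-fold lower, 1.49%, and the median SE of their differences over spots was 0.03. AKT1, a kinase of insulin and growth signalling, had 195 units at 1 h and 80.4 units in the control, a difference of 1.28 with an SE of 0.06. On the lower side stood ADM, JUN, IFI27 and BAZ1A, a chromatin remodelling subunit at 1584 units at 1 h and 2790 units in the control, -0.82 with an SE of 0.02. All spots of an array read 1 RNA sample, so this SE holds no spread between cultures.

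Some genes were above background on 1 of the 2 arrays, and for these a bound is given. It sets the bright side against the higher of the dim probe's own level and the lowest level among probes well above background. RNF182, a ubiquitin ligase, was not well above background at 1 h, at 3.67 units, against 527 units in the control, at least 39.1-fold lower. LCA5L, TENT5C and CDK14 were at least 20.4-fold, 12.8-fold and 11.4-fold lower at 1 h. In the other direction PICK1, a scaffold protein, read 84.9 units at 1 h and was not well above background in the control, at 18.0 units, at least 4.72-fold higher, TAAR6 at least 4.69-fold, SPATA3 at least 4.57-fold and CNTN3 at least 4.46-fold. RNF182 was above background again at 24 h, CDK14 at 3 h, and LCA5L and TENT5C on none of the 5 extract arrays. TAAR6 and CNTN3 were above background on the 1 h array alone of the 6. SPATA3 was so also at 3 h, and PICK1 also at 3, 12 and 24 h. The probes that disagreed most belonged to ARHGEF28, with differences between -3.00 and 0.68, NLRP1, between -2.40 and 0.37, DCAKD, between -0.81 and 1.92, and GH2, between -0.19 and 2.53.

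Levels on all 6 arrays are given beside the 1 h values for 4 genes. The 6 h array was dim, with 50.6% of spots above background and an unscaled 75th percentile of 153 units, and the 12 h array had 420 units, against 768 to 1900 units for the others, so the scaled readings of these arrays are less certain. EIF5A read 1706 units in the control, 5835 at 1 h and 3532 at 3 h by its brighter probe, so that 1 h was its highest reading, and 579 to 1116 units on the later arrays. CCNG2 read 964 units in the control, 466 at 1 h and 120 at 3 h, its lowest, and then 174, 576 and 951 units on the 6, 12 and 24 h arrays. DUSP1 read 4271 units in the control, 1862 at 1 h and 1863 at 3 h, was lowest on the 6 h array with 667 units, and read 3433 units on the 24 h array. DDIT4 read 13150 units in the control, 4798 at 1 h and 2942 at 3 h, and was highest on the 12 h array with 34520 units. All these readings share the 1 control array, and no other control was used here.

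**Figure D5:**
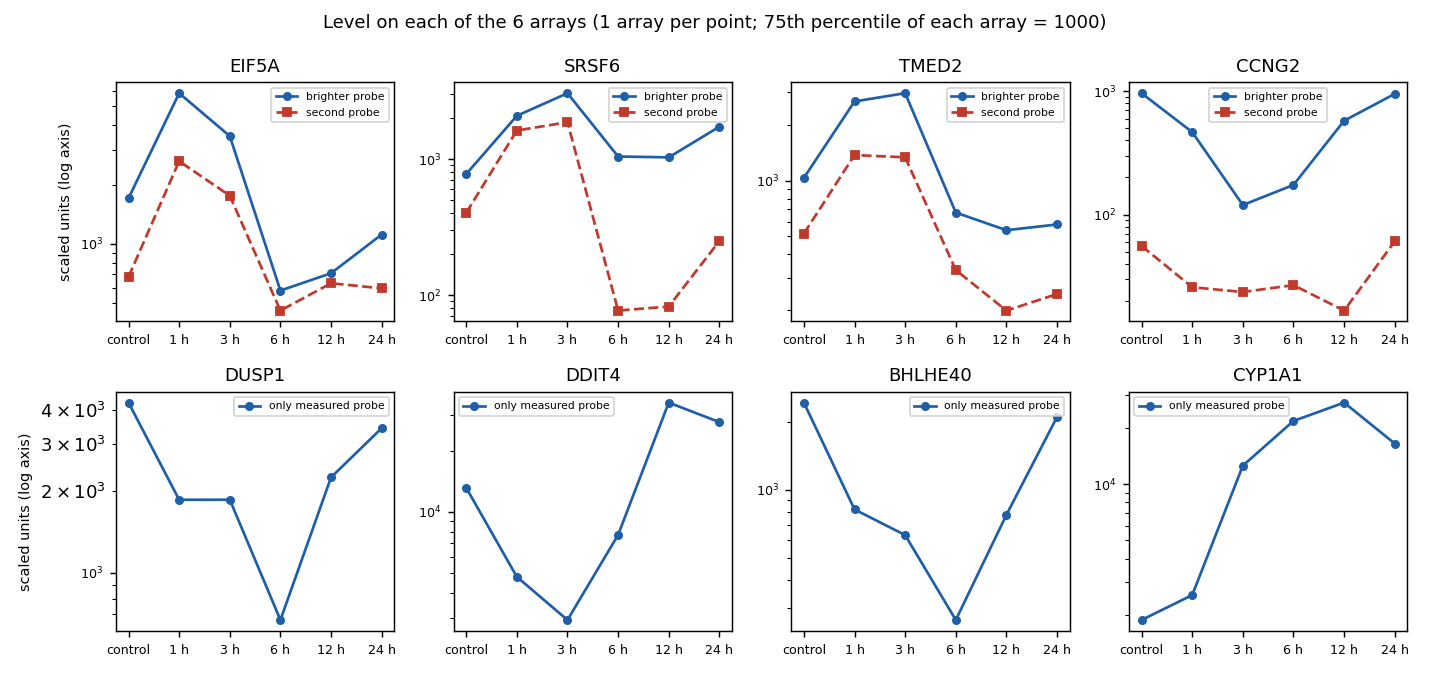
Scaled units (log axis, 1 array per point) are plotted in the order control, 1 h, 3 h, 6 h, 12 h and 24 h for 8 genes, with both probes where 2 were measured. EIF5A, SRSF6 and TMED2 are higher at 1 h than in the control in both probes, CCNG2 lower in both, DUSP1, DDIT4 and BHLHE40 lower in 1 probe, and CYP1A1 is 2550 units at 1 h against 1875 units in the control.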

How the data were processed

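RNA of HepG2 cells was read on 6 one-colour arrays, 1 per condition. Per the file headers, the deposited intensity values are green-channel spot signals already corrected for background by the scanner software, while the labels name the dye Cy5. The authors' deposited value table held unscaled intensity for 35646 probes and equalled median signal minus median background within 0.51 units for all single-spot probes. Software version and genome build: neither is given in the sources used here. Log2 signals were averaged over the spots of a probe and scaled by each array's 75th percentile. Of 41000 probes, 40895 were kept, and 26808 had a single symbol, by RefSeq names. The representative probe of a gene had the highest mean over the 6 arrays.

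Genes were named by agreement of probes (14 in each direction), the largest differences per list, bright single probes (6 in each direction), one-sided bounds, repeated probes and probe disagreement (4 each), and a fixed set; a few genes that this rule names are not reported here. The members and lists were chosen with earlier results of these data known. The code was tested on simulated data. The planted differences were larger than the limits used here and the spread between probes smaller than in the data. That run checks the code and not the counts. Alternatives were quantile normalization, loess, median scaling, normexp (offset 50), the authors' values, the filter on dim probes, the gene summary, and a loess on probe G and C content added after seeing the data (limma 3.58.1, R 4.3.3). The number of arrays limits the precision.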

Additional observations from a re-analysis of the deposited data

How the results depend on the processing

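No paired analysis was possible because each group held 1 array. The 294 genes at least 2-fold higher and 87 lower became 117 and 37 with normexp background, 581 and 436 without the filter on dim probes, and 37 and 19 among genes above the median signal on both arrays, where fewer genes were counted. Between 211 and 333 were higher and between 67 and 91 lower under the other alternatives. The 103 and 49 agreeing genes became 55 and 24 with normexp and 17 and 3 at 2-fold in every probe, the lower ones 84 without the filter and 13 after the fit on G and C content. Loess on mean signal gave 117 and 42. The median of the immediate early list was -0.34 after the fit on G and C content, -0.19 with the mean of all probes and -0.50 among bright genes. That of the feedback list was -0.58 among 6 bright genes. That of the growth arrest list was -0.47 with normexp, -0.47 with the authors' values, -0.45 after the fit on G and C content and -0.35 with the mean of all probes. All 3 stayed below 0 under each of the 9 alternatives, which reuse the same 2 arrays and the same lists. The sign does not set them apart. Several lists nearer 0 also stayed below 0 in all 9, such as respiratory chain genes, with a median of -0.06. The median of all measured genes was itself -0.06. STAT5A differed by -1.67 and HSD17B6 by -2.11 with normexp. The cause of these shifts was not tested. Genes near background are the least certain.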

Other observations

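Probes without a single gene symbol were left out of the gene counts. Of 7931 such probes that were measured on both arrays, 172 were at least 2-fold higher at 1 h, 2.17%, and 122 were at least 2-fold lower, 1.54%. Among named genes, each read by its brightest probe, the lower share was 0.663%. The share of unnamed probes counts every measured probe, so the measures are not alike. The difference between these shares was not tested. Another probe printed on 10 spots, without a gene symbol, was among the 5 that were 2-fold higher, at 10550 units at 1 h and 5024 units in the control.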
